A study of Arabidopsis thaliana with 24 samples.

Results

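The ascorbate peroxidase family of Arabidopsis thaliana was followed across pistils of 3 genotypes at 2 temperatures. Its members are APX1, APX2, APX3, APX4, APX5, APX6, SAPX and TAPX, 8 of the 33055 genes in the count table. The 8 genes were selected by their locus identifiers from a list proposed with the level of APX2 in these libraries already known, so the values of APX2 are given as a description, with no test. The other 7 members were tested in a fit of all 21312 genes that passed the filter on low counts. All 8 passed that filter, APX2 only through one group of libraries.

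The genotypes were the 35S::PIF4 line, in which the constitutive 35S promoter drives the transcription factor PHYTOCHROME-INTERACTING FACTOR 4, the phyB mutant (homozygous phyB-9, lacking the red light and temperature sensor phytochrome B) and the wild type Col-0. Plants of all genotypes were raised at normal ambient temperature (nAT, 21 °C by day and 18 °C at night) in 16 h of light and 8 h of dark, and at the start of flowering were either moved to high ambient temperature (hAT, 28 °C by day and 24 °C at night) or left at nAT. Unpollinated pistils of flower stages 11 to 12 gave 4 biological replicates in each of the 6 groups, 24 poly(A) RNA libraries in all. The comparison across temperatures within each genotype, and across genotypes at each temperature, asks how the phyB and PIF4 pathway takes part in the warm response of the pistil.

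Ascorbate peroxidases reduce hydrogen peroxide to water with ascorbate as the electron donor, and the oxidised ascorbate is regenerated by monodehydroascorbate, dehydroascorbate and glutathione reductases. The isoforms work in different compartments: APX1 and APX2 in the cytosol, APX3 and APX5 on peroxisome membranes, SAPX in the stroma and mitochondria, TAPX on the thylakoid membrane and APX4 in the thylakoid lumen. APX1 is the main cytosolic enzyme of leaves, while APX2 is best known as a target of heat shock factors that is nearly silent in unstressed leaves and induced by heat or excess light.

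Libraries held between 18379700 and 30184000 counts, to the nearest 100. The 4 Col-0 nAT libraries stood apart from the other 20: their counts fell on shorter genes, with a mean gene length of 1612 to 1804 bases against 2065 to 2220 bases, and their 10 most abundant genes took 6.42% to 6.62% of counts, against 3.28% to 3.86%. Every comparison with Col-0 nAT below carries these differences. Pistil identity was checked with 8 carpel and ovule genes, whose summed level was 471 to 593 CPM (counts scaled to a common library size) in every library, while 7 tapetum genes together stayed at or under 1.46 CPM, 7 pollen genes were at 21.4 to 106 CPM and the petal and stamen genes AP3 and PI at 29.1 to 102 CPM, both differing between groups. In bulk tissue, fewer cells of a type and less RNA per cell cannot be told apart.

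The genes lie on chromosomes 1, 3 and 4 of the TAIR10 build. APX1 (AT1G07890) is at chr1:2437281-2439665 on the plus strand, APX2 (AT3G09640) at chr3:2956156-2958330 on the plus strand, and TAPX (AT1G77490) at chr1:29117500-29121093 on the plus strand. The other 5 are on chromosome 4: SAPX (AT4G08390) at chr4:5314871-5317963 on the plus strand, APX4 (AT4G09010) at chr4:5777397-5779572 on the minus strand, APX6 (AT4G32320) at chr4:15602721-15605400 on the plus strand, APX3 (AT4G35000) at chr4:16664724-16667721 on the minus strand and APX5 (AT4G35970) at chr4:17028586-17030558 on the plus strand. APX4 and APX5 overlap genes on the opposite strand, and since no source used here states whether counting used strand, their counts may hold reads of those neighbours. The coding sequences of the cytosolic pair APX1 and APX2 were identical at 73.0% of 749 aligned bases, those of APX3 and APX5 at 70.7% and those of SAPX and TAPX at 77.9%. The longest stretch shared exactly by the transcripts of any of the 28 pairs was 21 bases (SAPX and TAPX).

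The stretches in front of APX2 and APX1 are printed because these cytosolic isoforms had different patterns over the groups, APX2 being high in 35S::PIF4 at hAT alone and APX1 highest in Col-0 at nAT. Each run is the 300 bases before the annotated gene start in the 5′ to 3′ direction of the gene, APX2 at chr3:2955856-2956155 and APX1 at chr1:2436981-2437280 (RefSeq copy of TAIR10, plus strand). Capitals mark matches to the paired heat shock element units GAANNTTC or TTCNNGAA and to the G-box CACGTG, a binding motif of PIF proteins. All of these read the same on both strands.
APX2: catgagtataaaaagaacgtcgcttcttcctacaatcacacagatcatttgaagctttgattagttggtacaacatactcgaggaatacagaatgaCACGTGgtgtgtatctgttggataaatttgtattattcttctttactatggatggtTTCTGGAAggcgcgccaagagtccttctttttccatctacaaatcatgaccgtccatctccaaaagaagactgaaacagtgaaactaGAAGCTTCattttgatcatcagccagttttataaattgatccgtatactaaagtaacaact
APX1: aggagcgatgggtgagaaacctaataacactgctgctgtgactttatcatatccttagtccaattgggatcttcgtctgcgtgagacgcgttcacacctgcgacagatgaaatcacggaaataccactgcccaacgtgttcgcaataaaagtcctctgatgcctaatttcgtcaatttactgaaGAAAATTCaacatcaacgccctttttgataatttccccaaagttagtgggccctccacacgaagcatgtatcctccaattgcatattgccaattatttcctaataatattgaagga
APX2 held a G-box at bases -204 to -199 and paired units at bases -148 to -141 and -61 to -54, with none of these matches overlapping, and APX1 held a paired unit at bases -116 to -109. Among the same windows of 27414 protein-coding genes, 19.4% held a paired unit and 7.08% a G-box. Of the other members, APX5 held a paired unit and APX3 a G-box, and SAPX, TAPX, APX4 and APX6 held neither. The windows of APX3, APX6 and TAPX each overlapped an annotated neighbouring gene. No member held the longer element GAANNTTCNNGAA or TTCNNGAANNTTC, found in 0.485% of windows, or the PBE-box CACATG on either strand, found in 13.1%. A match is a description of the letters and not a binding site.

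APX2 was present in pistils of 35S::PIF4 plants at hAT and close to 0 everywhere else. The 4 libraries of 35S::PIF4 at hAT held 440, 486, 424 and 444 APX2 reads, against 1, 1, 0 and 0 reads in 35S::PIF4 at nAT. The phyB libraries held 4, 1, 1 and 3 reads at hAT and 1, 1, 2 and 0 reads at nAT. The Col-0 libraries held 0, 1, 1 and 5 reads at hAT and 0, 0, 1 and 0 reads at nAT. The highest library outside 35S::PIF4 hAT, with 5 reads, was thus far under the lowest inside it, and among the 5 low groups all neighbours in the order of levels overlapped.

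In 35S::PIF4 at hAT the level of APX2 was 20.2 ± 0.152 CPM (SD, n = 4), or 18.5 ± 0.129 FPKM (fragments scaled by gene length and library size). Summed over libraries, its 1794 reads made a ratio of 1021 to the 2 reads of 35S::PIF4 at nAT (95% interval 282 to 8435). Against phyB at hAT, with 9 reads, the ratio was 220 (116 to 483), and against Col-0 at hAT, with 7 reads, it was 279 (135 to 696). At nAT, phyB summed to 4 reads and Col-0 to 1 read. The intervals are exact, cover counting error only and leave out the spread between libraries. They are not a test, since the family was proposed with the level of APX2 already known. With 2 reads in 35S::PIF4 at nAT, the ratio to that group was known only within wide bounds. Per length, the level of APX2 in 35S::PIF4 at hAT was within the range of the chloroplast isoform TAPX in the same libraries (17.5 to 19.2 FPKM).

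**Figure D1:**
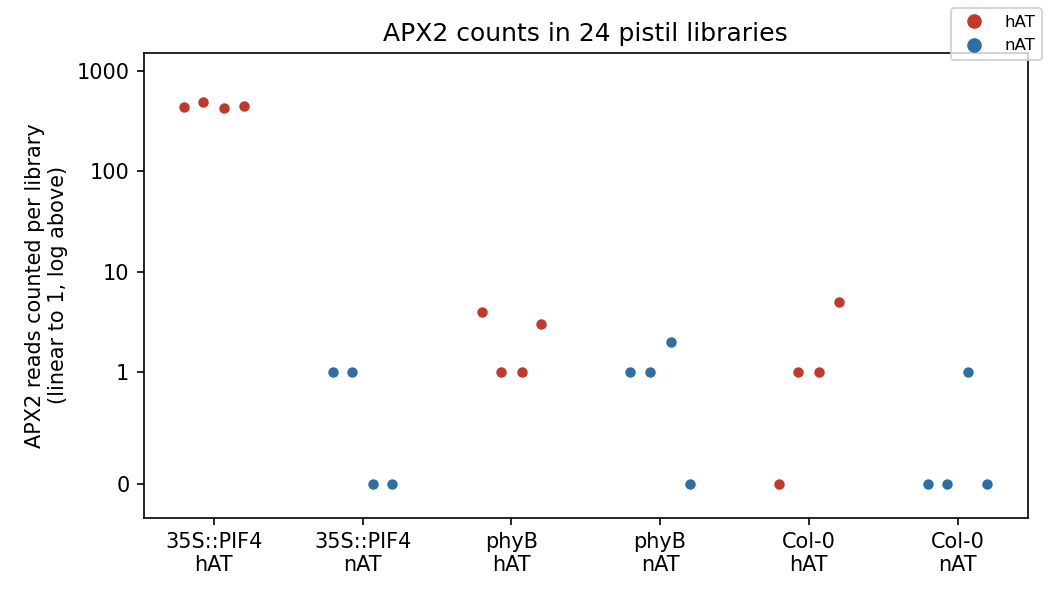
Reads counted for APX2 (vertical axis, linear up to 1 and logarithmic above) in each of 24 pistil libraries, 4 points per group, hAT in red and nAT in blue. The 4 libraries of 35S::PIF4 at hAT sit between 424 and 486 reads, and the other 20 libraries between 0 and 5 reads.

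The heat shock factors and their other known targets were read beside APX2 from lists chosen with earlier results known. Of 12 class A heat shock factors tested, 4 were higher and 0 lower in 35S::PIF4 at hAT than at nAT (HSFA2, HSFA7A, HSFA7B and HSFA8). Over all tested genes, 8.50% were called higher and 2.47% lower in this comparison. Of 8 other heat shock factor targets, 8 were higher, with a median log2 fold change of 4.53 against -0.01 over all genes. As APX2 did, HSP21 among them passed the filter on low counts only through 35S::PIF4 at hAT (342 to 390 reads, against 0 to 7 elsewhere). Since the lists were chosen with earlier results of these data known, the calls and p-values of these heat genes, here and below, are a description. HSFA2, a factor known to sustain the expression of heat genes including APX2, had 217, 199, 195 and 206 CPM in 35S::PIF4 at hAT, against 4.55, 7.75, 8.20 and 2.83 CPM at nAT. Its log2 fold change was 5.10 ± 0.23 (SE, edgeR quasi-likelihood test, adjusted p = 3.74e-14), and the groups did not overlap, as for 53.0% of all genes. HSP101, a chaperone that dissolves protein aggregates, had 737, 733, 663 and 708 CPM in 35S::PIF4 at hAT, against 23.8, 24.4, 25.8 and 19.0 CPM at nAT. Its log2 fold change was 4.93 ± 0.14 (SE, edgeR adjusted p = 3.27e-19).

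In phyB at nAT, 4 of 12 class A heat shock factors were called higher than in Col-0 (HSFA1A, HSFA2, HSFA7A and HSFA7B), 0 were called lower and 8 were not called. Over all genes, 21.1% were called higher and 11.9% lower. APX2 stayed near 0 in the libraries of phyB and Col-0 at nAT. HSFA2 had 35.8, 32.8, 31.9 and 32.4 CPM in phyB at nAT, against 2.15, 0.81, 2.70 and 2.23 CPM in Col-0 at nAT, a log2 fold change of 4.03 ± 0.30 (SE, edgeR adjusted p = 2.86e-11). HSFA7A, another heat-inducible factor, had 4.71, 3.22, 4.28 and 3.83 CPM in phyB at nAT, against 0, 0.56, 0.34 and 0 CPM in Col-0 at nAT. HSP101 had 76.2, 74.4, 76.1 and 75.1 CPM in phyB at nAT, against 9.91, 5.41, 12.1 and 8.76 CPM in Col-0 at nAT. These 3 genes were each several times higher in phyB at nAT with no overlap between groups, while the same phyB libraries held 0 to 2 reads of APX2. Over all genes, 68.5% did not overlap between phyB and Col-0 at nAT. Of the 8 other heat shock factor targets, 3 were called higher in phyB relative to Col-0 at nAT (HSP17.6C, HSP101 and HSP22.0) and 0 were called lower. Over all genes the shares were 21.1% and 11.9%. GOLS1, another of the 8 targets, was lower but not called, at 52.8 to 56.5 CPM in phyB against 75.6 to 86.0 CPM in Col-0 at nAT.
At hAT, HSFA2 had 27.4, 22.2, 12.7 and 21.8 CPM in phyB and 3.87, 6.37, 5.08 and 5.15 CPM in Col-0, and APX2 again held at most 5 reads in any of these 8 libraries. In Col-0, 3 of 12 class A factors (HSFA1A, HSFA2 and HSFA1B) and 1 of the 8 other targets (HSP101) were higher at hAT than at nAT and 0 were lower. Over all genes, 24.2% were called higher and 13.4% lower. With an offset for gene length the counts called higher became 2 and 0. Over all genes the calls higher became 3134 with the offset, against 5149 without it.

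**Figure D2:**
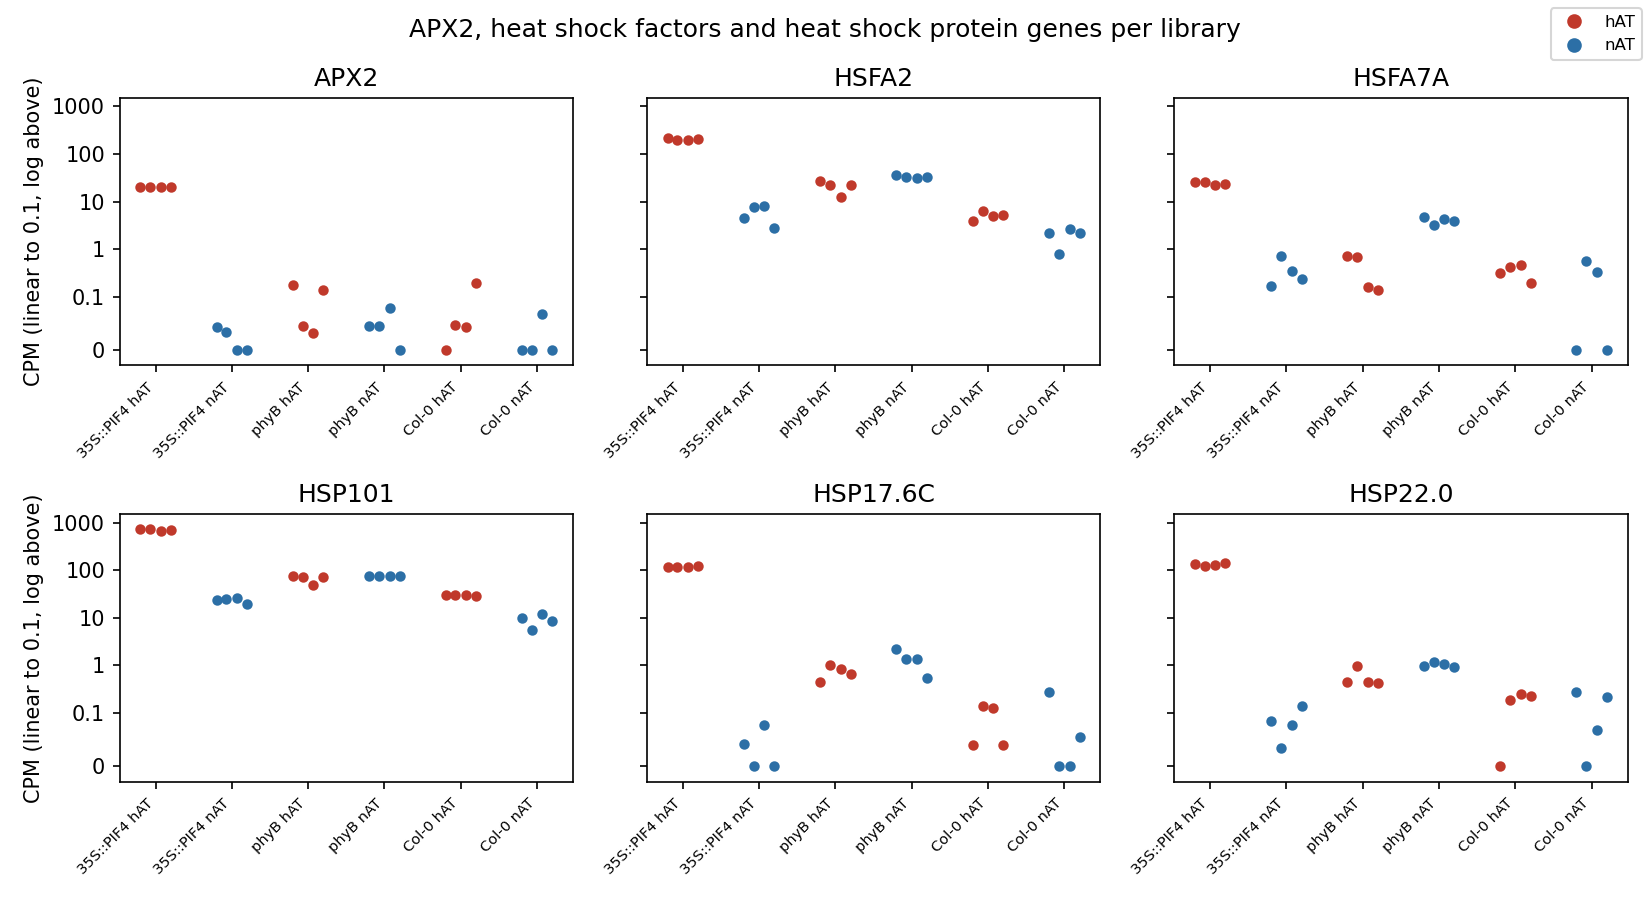
CPM (vertical axis, linear up to 0.1 and logarithmic above) of APX2, the heat shock factors HSFA2 and HSFA7A, and the heat shock protein genes HSP101, HSP17.6C and HSP22.0 in each of 24 libraries, hAT in red and nAT in blue. All 6 genes are highest in 35S::PIF4 at hAT; in phyB at nAT, HSFA2 lies between 31.9 and 35.8 CPM while APX2 holds at most 2 reads.

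The genes whose pattern was most like that of APX2, by Pearson's correlation of log2 CPM over the 24 libraries among genes of at least 1 CPM on average, were HSP70-8, HSP70-5, HSFB1, ERDJ3A and Fes1A, with correlations of 0.967 to 0.981. Over the 20 libraries without Col-0 nAT, 3 of the first 5 were shared. These values are a description: the libraries of a group share their condition, and the correlation rests on the 35S::PIF4 hAT libraries, the only ones with more than 5 reads of APX2.

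APX1 was the most abundant member in all 6 groups, and its level was lower at hAT than at nAT in Col-0 but not in phyB. The deposited FPKM of APX1 in Col-0 was 277, 281, 277 and 264 at hAT, against 829, 913, 750 and 786 at nAT. In phyB it was 356, 369, 351 and 329 at hAT and 334, 322, 321 and 331 at nAT. In 35S::PIF4 it was 323, 312, 311 and 326 at hAT and 381, 439, 372 and 395 at nAT. The 4 Col-0 nAT libraries were thus above all 20 others, and the phyB groups overlapped. APX1 carried 74.8% of the summed family FPKM in Col-0 at nAT and 56.8% to 62.2% in the other groups.

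APX1 fell in Col-0 by 1.50 on the log2 scale at hAT (SE 0.06, edgeR quasi-likelihood test, adjusted p = 1.25e-18). At nAT it fell by 1.24 in phyB relative to Col-0 (SE 0.06, edgeR adjusted p = 8.10e-17), while its difference between 35S::PIF4 and Col-0 at nAT was -0.95 ± 0.06 (adjusted p = 1.68e-14), just short of the fold threshold. The last value passed the threshold at -1.05 with median-of-ratios normalization and at -1.03 without 35S::PIF4 nAT replicate 2. Its temperature response was 0.10 ± 0.06 in phyB and -0.33 ± 0.06 in 35S::PIF4 (log2, SE). The response of phyB minus that of Col-0 was 1.60 ± 0.08 (adjusted p = 1.88e-15), and that of 35S::PIF4 minus that of Col-0 was 1.16 ± 0.08 (adjusted p = 9.14e-13). All of these comparisons share the Col-0 nAT libraries.

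Genes of green tissue moved with APX1. The summed level of 5 such genes (RBCS1A, LHCB1.1, LHCB2.1, PSAD1 and PSBO1) was 4240 to 4361 CPM in Col-0 at hAT, against 12096 to 14984 CPM in Col-0 at nAT. In 35S::PIF4 it was 4248 to 4556 CPM at hAT, against 5803 to 6862 CPM at nAT, and in phyB 5465 to 5901 CPM at hAT, against 5205 to 5384 CPM at nAT. Called lower at hAT relative to nAT were 5 of 5 in Col-0, where 13.4% of all genes were called lower, 2 of 5 in 35S::PIF4 (all genes 2.47%) and 0 of 5 in phyB (all genes 3.44%), and none was at 0 in any group. With an offset for gene length, 3 of 5 were called lower in Col-0. Over all genes the calls lower became 3428 with the offset, against 2856 without it. The genes most like APX1 over the 24 libraries were RBCS-1A, PETC, RPS5A, PAO5 and DIR20, with Pearson correlations of 0.986 to 0.994, and 3 of the first 5 were shared over the 20 libraries without Col-0 nAT. RBCS-1A encodes the small subunit of Rubisco and PETC the Rieske protein of the photosynthetic electron chain. The part of green tissue in the level of APX1, and in the lower SAPX, TAPX and APX4 of 35S::PIF4 at hAT given below, was not tested.

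**Figure D3:**
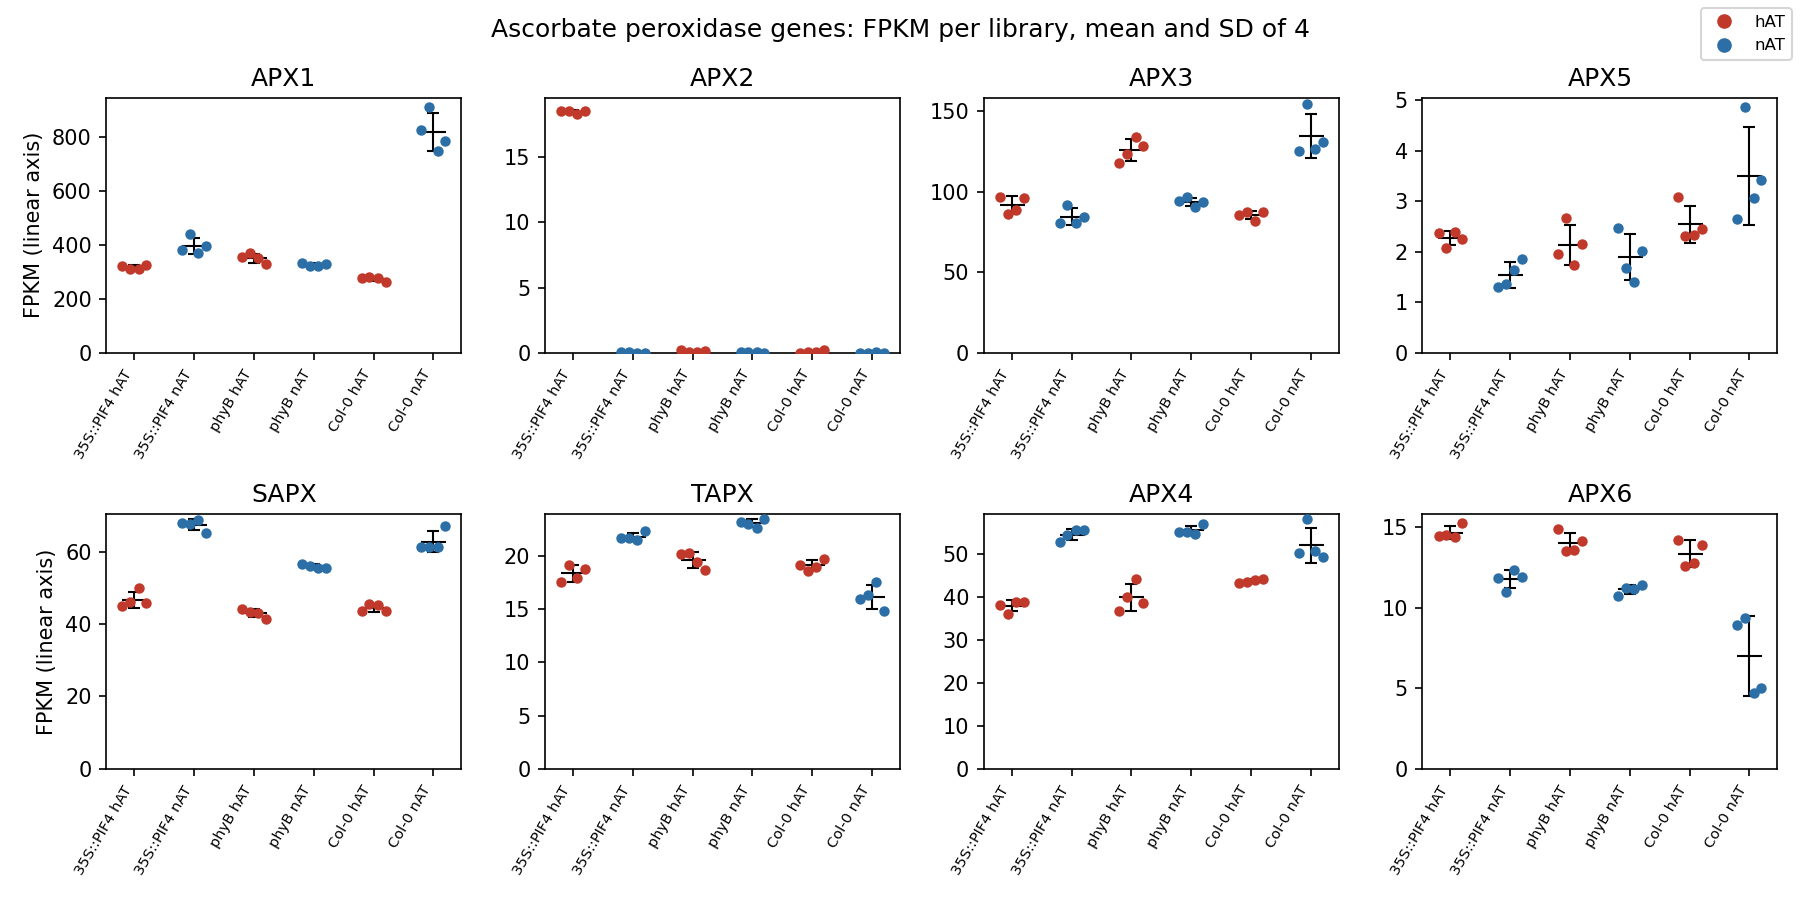
Deposited FPKM (vertical axis, linear and from 0, with its own scale in each panel) of the 8 ascorbate peroxidase genes in each of 24 libraries, hAT in red and nAT in blue; black bars give the mean and SD of 4 libraries. APX1 reaches 750 to 913 FPKM in Col-0 at nAT and lies between 264 and 439 FPKM elsewhere, and APX2 is above 1 FPKM only in 35S::PIF4 at hAT, at 18.3 to 18.6 FPKM.

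The order of the members by FPKM was nearly the same in all groups. In 5 of 6 groups it ran APX1, APX3, SAPX, APX4, TAPX, APX6, APX5, APX2, and in 35S::PIF4 at hAT APX2 stood at rank 5, level with TAPX. After APX1, group means were between 84.4 and 134 FPKM for APX3, 43.0 to 67.4 for SAPX and 38.0 to 55.6 for APX4. The libraries of SAPX and APX4 overlapped in Col-0 at hAT and in phyB at both temperatures, those of APX6 and APX5 in Col-0 at nAT, and those of APX2 and TAPX in 35S::PIF4 at hAT. All other neighbours were separated in every library. The family summed to 549 FPKM in 35S::PIF4 at hAT and 638 at nAT, to 596 in phyB at hAT and 568 at nAT, and to 484 in Col-0 at hAT and 1095 at nAT.

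Apart from APX2, few members passed both limits of a call (adjusted p under 0.05 over all genes, and a change of 1 or more on the log2 scale in either direction). Of the 7 members, 1 was higher (APX6) and 1 lower (APX1) at hAT relative to nAT in Col-0, where 24.2% of all genes were called higher and 13.4% lower. In phyB 0 of 7 were called higher and 0 lower between the temperatures (all genes 4.63% and 3.44%), and in 35S::PIF4 0 higher and 0 lower (all genes 8.50% and 2.47%). By adjusted p alone, with no limit on size, 6 of 7 members passed in 35S::PIF4 (53.0% of all genes), 5 in phyB (43.7%) and 6 in Col-0 (80.2%). On the CPM scale the hAT and nAT libraries did not overlap for 6 members in Col-0 (71.9% of all genes), 5 in phyB (48.0%) and 6 in 35S::PIF4 (53.0%). The median log2 fold change of the 7 members was -0.36 in Col-0, 0.10 in phyB and -0.26 in 35S::PIF4, against 0.14, 0.00 and -0.01 over all genes. With an offset for gene length, the calls over all genes in Col-0 split into 3134 higher and 3428 lower, against 5149 and 2856 without it.

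Between genotypes at nAT, APX1 was the 1 member called lower and 0 were called higher in phyB relative to Col-0 (all genes 11.9% lower and 21.1% higher). In 35S::PIF4 relative to Col-0, APX5 was the 1 member called lower and 0 were higher (all genes 12.2% lower and 19.3% higher). At hAT, 0 of 7 members were called in phyB relative to Col-0 (all genes 4.77%) and 0 in 35S::PIF4 relative to Col-0 (3.07%), with log2 differences between -0.27 and 0.55. Between 35S::PIF4 and phyB 0 members were called at nAT (all genes 6.14%) or at hAT (3.87%). The temperature response relative to that of Col-0 passed both limits for 1 member, APX1, upward in phyB (all genes 10.6%) and in 35S::PIF4 (11.7%). By adjusted p alone it differed from that of Col-0 for 5 of 7 members in phyB and 6 of 7 in 35S::PIF4 (all genes 69.3% in both), and both limits were passed between 35S::PIF4 and phyB for 0 members (all genes 6.29% in either direction).

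APX3, an isoform of the peroxisome membrane, had opposite directions in phyB and Col-0. Its FPKM was 118, 124, 134 and 128 in phyB at hAT, against 94.3, 96.5, 90.3 and 93.8 at nAT, with no overlap. In Col-0 it was 85.5, 87.1, 82.0 and 87.5 at hAT, against 125, 154, 127 and 131 at nAT, again with no overlap. The log2 fold change was 0.42 ± 0.06 in phyB (SE, edgeR adjusted p = 3.55e-06), -0.57 ± 0.06 in Col-0 (adjusted p = 2.88e-09) and 0.11 ± 0.06 in 35S::PIF4 (adjusted p = 0.147), all within the fold threshold. The response of phyB minus that of Col-0 was 0.99 ± 0.09 (adjusted p = 1.23e-10), just short of the fold threshold, and was past it, at 1.05 to 1.08, with DESeq2, median-of-ratios normalization, limma and only the groups compared. It was also past it, at 1.00 to 1.02, when any 1 of 7 libraries was left out (Col-0 nAT replicates 1 and 3, Col-0 hAT replicates 2 and 4, phyB nAT replicate 2 and phyB hAT replicates 1 and 2). AP3 and PI summed to 29.1 to 45.4 CPM in phyB at hAT, against 63.6 to 69.6 CPM in phyB at nAT, and to 54.6 to 59.9 CPM in Col-0 at hAT, against 75.8 to 102 CPM in Col-0 at nAT, and the part of petal and stamen tissue in the level of APX3 was not tested. At hAT, where Col-0 nAT takes no part, APX3 was 0.55 ± 0.06 above Col-0 in phyB (adjusted p = 1.02e-07) and 0.10 ± 0.06 above it in 35S::PIF4 (adjusted p = 0.246).

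APX5, the other peroxisomal isoform, was the lowest member outside APX2, with 43 to 110 reads per library. Its FPKM in 35S::PIF4 was 2.37, 2.08, 2.39 and 2.25 at hAT and 1.30, 1.36, 1.64 and 1.85 at nAT, and in Col-0 at nAT it was 2.64, 4.87, 3.06 and 3.41. At nAT it fell in 35S::PIF4 by 1.08 on the log2 scale relative to Col-0 (SE 0.19, edgeR adjusted p = 1.33e-05), a call that was lost at -0.91 without Col-0 nAT replicate 2 and at -0.88 with an offset for gene length. Its log2 fold change between hAT and nAT was 0.55 ± 0.19 in 35S::PIF4 (adjusted p = 0.0176), 0.16 ± 0.19 in phyB (adjusted p = 0.518) and -0.36 ± 0.18 in Col-0 (adjusted p = 0.0711). The response of 35S::PIF4 minus that of Col-0 was 0.91 ± 0.27 (adjusted p = 0.00350), and it passed the fold threshold at 1.01 with DESeq2 and median-of-ratios normalization, and at 1.01 to 1.02 without Col-0 nAT replicate 1, Col-0 hAT replicate 1 or 35S::PIF4 nAT replicate 4. Over all groups its libraries overlapped those of the next group in the order of levels.

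The stromal SAPX, the thylakoid TAPX and the lumenal APX4 were lower at hAT than at nAT in both phyB and 35S::PIF4. SAPX had 44.9 to 50.1 FPKM in 35S::PIF4 at hAT against 65.3 to 68.9 at nAT, and 41.4 to 44.0 in phyB at hAT against 55.5 to 56.6 at nAT. Its log2 fold change was -0.55 ± 0.05 in 35S::PIF4, -0.39 ± 0.05 in phyB and -0.42 ± 0.05 in Col-0 (SE, edgeR adjusted p = 4.34e-10, 4.25e-07 and 1.45e-08). No group of hAT libraries overlapped its own nAT libraries.
TAPX had 17.5 to 19.2 FPKM in 35S::PIF4 at hAT against 21.5 to 22.3 at nAT, and 18.7 to 20.3 in phyB at hAT against 22.6 to 23.5 at nAT, a log2 fold change of -0.26 ± 0.05 and -0.24 ± 0.05. In Col-0 its value was 0.32 ± 0.05 (18.6 to 19.8 FPKM at hAT and 14.8 to 17.5 at nAT), but it became -0.33 with an offset for gene length. TAPX has the longest exonic sequence of the family, 2516 bases.
APX4, whose protein resembles ascorbate peroxidases but is thought to lack their activity, had 36.1 to 38.9 FPKM in 35S::PIF4 at hAT against 52.9 to 55.7 at nAT, and 36.8 to 44.3 in phyB at hAT against 54.8 to 57.0 at nAT. Its log2 fold change was -0.54 ± 0.06 in 35S::PIF4, -0.48 ± 0.06 in phyB and -0.17 ± 0.06 in Col-0 (edgeR adjusted p = 5.46e-09, 8.67e-08 and 0.00701). The 3 chloroplast members thus moved by less than the fold threshold, yet by several times their standard errors. Over the 20 libraries without Col-0 nAT, Pearson's correlation of log2 CPM was 0.83 for APX4 and SAPX, 0.88 for APX4 and TAPX and 0.74 for SAPX and TAPX, and over all 24 it was 0.81, 0.39 and 0.14. The libraries of a group share their condition, and these correlations are a description.

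APX6, whose place in the cell is less settled, was higher at hAT than at nAT in Col-0. Its FPKM in Col-0 was 14.2, 12.6, 12.8 and 13.9 at hAT, against 8.95, 9.38, 4.72 and 5.04 at nAT, where replicates 1 and 2 lay well above 3 and 4. The log2 fold change was 1.04 ± 0.13 (SE, edgeR adjusted p = 3.48e-08), and it dropped under the fold threshold without Col-0 nAT replicate 3 (0.90), without Col-0 nAT replicate 4 (0.90) and with median-of-ratios normalization (0.95). Fitted with only the groups compared, it was 0.94, with a larger edgeR adjusted p of 0.00162. The 7 pollen genes summed to 99.9 to 106 CPM in Col-0 at hAT, against 21.4 to 43.9 CPM in Col-0 at nAT. Of the 6 tested, 3 were called higher and 1 lower, where 24.2% of all genes were called higher and 13.4% lower. With an offset for gene length, 2 were called higher and 1 lower, beside 3134 higher and 3428 lower over all genes (5149 and 2856 without it). The part of pollen in the level of APX6 was not tested. In 35S::PIF4 APX6 had 14.4 to 15.3 FPKM at hAT and 11.0 to 12.3 at nAT, a log2 fold change of 0.30 ± 0.11 (adjusted p = 0.0280). In phyB it had 13.5 to 14.9 FPKM at hAT and 10.8 to 11.4 at nAT, a log2 fold change of 0.33 ± 0.12 (adjusted p = 0.0233). At nAT, 35S::PIF4 was 0.87 ± 0.13 above Col-0 (log2, SE, edgeR adjusted p = 9.00e-07), and this difference passed the fold threshold at 1.02 without Col-0 nAT replicate 1 or replicate 2 and at 1.14 with an offset for gene length. Across genotypes the hAT libraries spanned 12.6 to 15.3 FPKM and overlapped between neighbours in the order of levels.

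**Figure D4:**
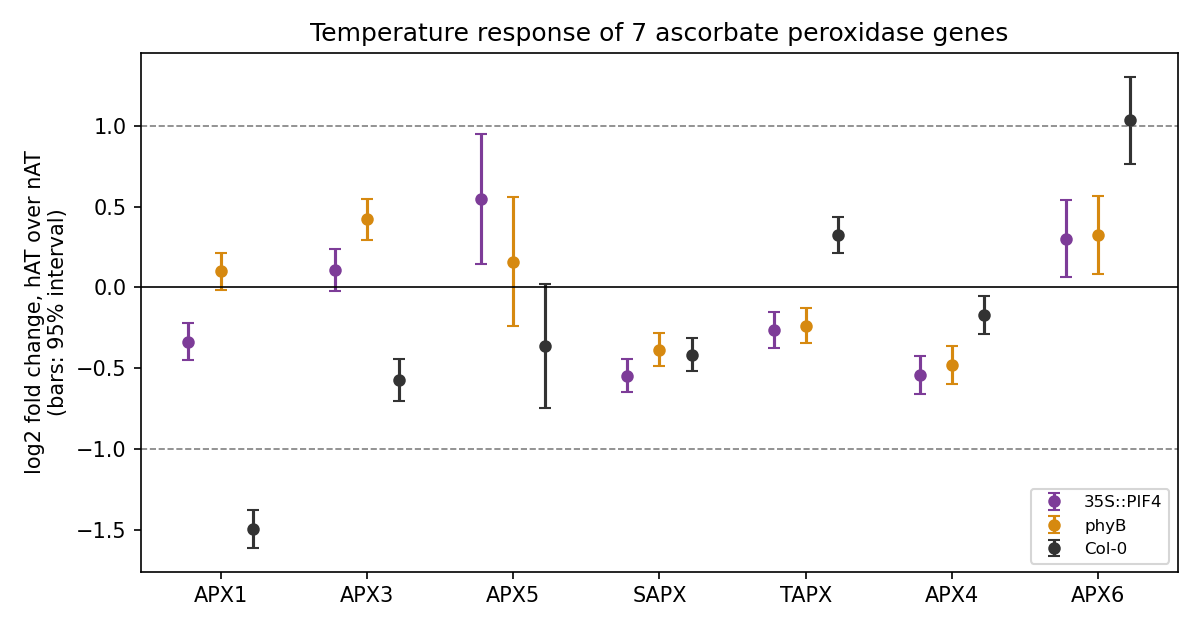
Log2 fold change at hAT over nAT (vertical axis) of the 7 ascorbate peroxidase genes other than APX2 in 35S::PIF4 (purple), phyB (orange) and Col-0 (black), with 95% intervals from the fit of all 24 libraries and dashed lines at -1 and 1. Outside the dashed lines lie APX1 at -1.50 and APX6 at 1.04, both in Col-0; SAPX and APX4 lie below 0 in all 3 genotypes.

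The enzymes that supply and recycle ascorbate were read from lists of the same pathway. In Col-0 at hAT relative to nAT, 24.2% of all genes were called higher and 13.4% lower. Of 9 ascorbate recycling genes tested, 0 were higher and 3 lower in this comparison. These were the dehydroascorbate reductases DHAR1 (log2 fold change -1.33) and DHAR2 (-1.26) and the monodehydroascorbate reductase MDAR1 (-1.03). Of 9 ascorbate and glutathione synthesis genes, 0 were higher and 4 lower: VTC2 (-1.16), which encodes the main control point of ascorbate synthesis, VTC1 (-1.10), GalDH (-1.09) and GME (-1.06). The median of the recycling list was -0.41 and that of the synthesis list -0.64, against 0.14 over all genes. In phyB and in 35S::PIF4 0 genes of both lists were called between the temperatures, in either direction, where 4.63% of all genes were called higher and 3.44% lower in phyB, and 8.50% and 2.47% in 35S::PIF4. VTC2 had log2 fold changes of 0.84 in 35S::PIF4 and 0.73 in phyB, of the other sign than in Col-0.

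Among enzymes that make or remove peroxide beside the family, 0 of 8 superoxide dismutases were higher and 4 lower in Col-0 at hAT relative to nAT, namely FSD1 (-1.49), CSD1 (-1.46), CSD2 (-1.21) and MSD1 (-1.16). Of 16 catalases, glutathione peroxidase-like proteins and peroxiredoxins, 1 was higher, GPX7 (1.37), and 6 were lower, led by PRXIIB (-1.70), PRXIIE (-1.49) and PRXQ (-1.26). The calls in these lists in Col-0 stand beside 24.2% of all genes called higher and 13.4% called lower. In phyB and in 35S::PIF4 GPX7 alone was called among these 24 genes, higher in both, with log2 fold changes of 1.97 and 1.11. Over all genes, 4.63% were called higher and 3.44% lower in phyB, and 8.50% and 2.47% in 35S::PIF4. With an offset for gene length the calls in Col-0 became 4 lower for recycling, 3 for synthesis, 3 for the dismutases and 5 for the other enzymes. Over all genes the calls lower became 3428 with the offset, against 2856 without it.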

How the data were processed

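RNA sequencing of pistils covered 24 libraries, 4 in each of 6 groups taken from the sample titles. The authors trimmed 150-base paired reads, mapped them to TAIR10 with Araport11 and counted reads per gene with featureCounts, of which no source used here gives the version. The deposited counts are whole numbers with no normalization. The deposited FPKM values were made by the authors, and 100% of 570645 of them equalled the count over gene length and median-of-ratios library size within 0.1%. Transcripts outside the annotation took 0.219% of counts. The deposited fold changes and p-values of the authors' own comparisons were not used.

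Counts were fitted with edgeR 4.0.16 (R 4.3.3) in 1 quasi-likelihood model of 6 group means over all 24 libraries, with TMM normalization and filterByExpr, giving 18 residual degrees of freedom before shrinkage, and p-values were adjusted by Benjamini-Hochberg over 21312 genes in each of 12 contrasts. The study's own tests used DESeq2, here an alternative (1.42.0). Calls needed an adjusted p under 0.05 together with a change of 1 or more on the log2 scale, up or down. Values per library are deposited FPKM or TMM-scaled CPM. The log2 CPM used for correlations had a prior count of 2. The fit was tested on simulated data and found 91.0% of genes changed 2-fold in 35S::PIF4 at hAT at an adjusted p under 0.05 and in the right direction, with no limit on size. Only 35S::PIF4 at hAT was changed in these data, so the shift in gene length of the Col-0 nAT libraries was not part of them. The share found is thus not the share that would pass both limits of a call.

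The members and gene lists were chosen with earlier results of these data known, so the calls and p-values in the gene lists are a description. All 8 members are named, and of each list up to 4 called genes per comparison with the largest change. Alternatives were DESeq2, median-of-ratios normalization, no filter, only the groups compared, a replicate block, an offset for gene length (spline with 5 degrees of freedom), limma 3.58.1 on log2(FPKM + 0.1), and leaving out single libraries or Col-0 nAT. Same-numbered replicates did not deviate together: in 0 of 15 pairs of groups were all 4 correlations over 0.1 (range -0.24 to 0.24). No 2 libraries of a group agreed within sampling noise (chi-square per degree of freedom of at least 1.74). The largest value was 62.0 within Col-0 nAT, against at most 12.1 within any other group, so the Col-0 nAT replicates differed most from each other. Gene coordinates matched the RefSeq copy of TAIR10 for 99.95% of 32548 genes.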

Additional observations from a re-analysis of the deposited data

Results flagged for a closer look

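The temperature response of APX1 differed between genotypes by a test of the difference itself: it was 1.60 on the log2 scale higher in phyB than in Col-0, and 1.16 higher in 35S::PIF4 than in Col-0 (edgeR interaction terms, adjusted p = 1.88e-15 and 9.14e-13). Both rest on the Col-0 nAT libraries, which stand apart in the length of the genes they count.

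In 42 sets of 4 libraries of the members other than APX2, 1 library lay far from the other 3 for the following, with the gap to its neighbour as a fraction of the range of the set. The fractions were 0.995 for SAPX in Col-0 at nAT (replicate 4 high), 0.890 for APX6 in 35S::PIF4 at hAT (replicate 4 high), 0.845 for APX4 in Col-0 at nAT (replicate 2 high), 0.844 for TAPX in 35S::PIF4 at nAT (replicate 4 high) and 0.836 for APX5 in Col-0 at hAT (replicate 1 high). Chance alone marks about 1 in 20 such sets.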

How the results depend on the processing

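Under 4 alternatives the count of members called in Col-0 at hAT relative to nAT was 1 in place of 2, with APX6 lost: DESeq2, median-of-ratios normalization, only the groups compared, and limma on FPKM. For 35S::PIF4 relative to Col-0 at nAT the count was 2 in place of 1 with DESeq2, median-of-ratios normalization, limma and the offset for gene length. For the response of phyB minus that of Col-0 it was 2 in place of 1 with DESeq2, median-of-ratios normalization, only the groups compared and limma, and for that of 35S::PIF4 minus that of Col-0 it was 2 in place of 1 with DESeq2, median-of-ratios normalization and the offset for gene length. Leaving out 1 library gave 1 to 2 members for each of these 4 counts, and the other 8 counts kept their value under every alternative. With the replicate block the counts were 2, 1, 1, 1, 1 and otherwise 0, as without it, and 63 of 63 member values (7 members in the 9 comparisons other than those of 35S::PIF4 with phyB) kept their call. Without the 4 libraries of Col-0 nAT, 28 of 28 member values kept theirs, and with no filter 63 of 63 did.

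With the offset for gene length the median log2 fold change of all genes was -0.15 in Col-0 at hAT relative to nAT, against 0.14 without it, and for the responses of phyB and 35S::PIF4 minus that of Col-0 it was 0.12 and 0.11, against -0.16 and -0.06. At nAT relative to Col-0 it was -0.13 in phyB and -0.11 in 35S::PIF4, against 0.11 and 0.04. The offset turned 6 of 63 member values: TAPX in Col-0 at hAT relative to nAT (-0.33), TAPX in phyB (-0.0234) and in 35S::PIF4 (-0.0299) and SAPX in 35S::PIF4 (-0.0003) relative to Col-0 at nAT, and the response relative to that of Col-0 of TAPX in phyB (0.0429) and of SAPX in 35S::PIF4 (0.0903). Leaving out 1 library, the response of SAPX in phyB minus that of Col-0 ranged between -0.0087 (without Col-0 nAT replicate 4) and 0.0546 (without Col-0 nAT replicate 2). The cause was not tested. The offset also changed the share of calls that were higher: to 64.8% from 77.5% in 35S::PIF4 at hAT relative to nAT, to 49.7% from 63.9% in phyB and to 51.2% from 61.3% in 35S::PIF4 relative to Col-0 at nAT, to 44.6% from 32.5% in phyB relative to Col-0 at hAT, to 58.4% from 68.8% in 35S::PIF4 relative to phyB at hAT, and for the responses to 52.4% from 33.0% (phyB minus Col-0), to 49.1% from 37.8% (35S::PIF4 minus Col-0) and to 72.6% from 85.9% (35S::PIF4 minus phyB). The order of the members by FPKM was the same from TMM-scaled counts. At 0 to 5 reads, differences of APX2 between the 5 low groups were not detectable at this depth.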
